A study of Mus musculus with 9 samples.

Results

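The 38 genes described here are markers of leukocytes, read out in RNA of whole mouse kidney: Ptprc of leukocytes in general, 14 genes of macrophages and monocytes, 3 of dendritic cells, 4 of neutrophils, 7 of T cells, 3 of natural killer (NK) and cytotoxic cells, and 6 of B and plasma cells. They were chosen by gene symbol from cell-type knowledge, with earlier results of these data known. They are 38 of the 52636 genes in the deposited tables. All 38 were found and all 38 passed the filter on low counts. Retnlg, Gzma and Ms4a1 reached the filter's level in libraries of only 2 genotypes, and no gene reached it in only 1. Itgam had a second entry with 3 reads that overlaps the first on the same strand, and the main entry with 552 reads was used.

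The study sequenced kidney RNA from mice of 3 genotypes, with 3 libraries each: the knock-in alleles C59A and C59S of Nfkb1, and wild type (WT). Both alleles exchange 1 cysteine codon of Nfkb1, both were made in C57BL/6NTac-derived embryonic stem cells, and both carry a PGK-neo selection cassette in a nearby intron, per the series text. The series text names C59A as activated NF-kB and C59S as inactivated, but where it describes DNA binding the order is the opposite, and no direction of NF-kB activity is attached to either allele here. Age, sex, treatment, zygosity, the strain of the WT mice and whether replicates are separate animals are not given in the sources used here, so the p-values reflect the spread among libraries, which may be technical.

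Nfkb1 encodes the precursor of a DNA-binding subunit of NF-kB, a transcription factor family that controls inflammatory genes in leukocytes and in other cells. A healthy kidney holds a network of resident macrophages and dendritic cells between its tubules, some lymphocytes, and few neutrophils, which mostly pass through in the blood. S100a8 and S100a9 encode the subunits of calprotectin, an abundant cytosolic protein of neutrophils that monocytes also make. Csf3r encodes the receptor for granulocyte colony-stimulating factor, the main growth factor of neutrophils, and Itgam encodes CD11b, an integrin alpha chain carried by neutrophils, monocytes, macrophages and NK cells.

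These 4 genes are the members that passed the test between C59A and WT, and their promoters are printed for that reason. Each is 300 bases long, from 250 before to 50 after the gene's start, taken from RefSeq for build GRCm38.p6 and written 5′ to 3′ on the gene's own strand. Capitals mark matches, on either strand, to GAGGAA (the core bound by PU.1, a myeloid factor), its longer form GAGGAAGT, TTGCNNAA (bound by C/EBP factors of granulocytes) or the NF-kB site known as the kB motif. The promoters are those of S100a8 (chr3:90668821-90669120, plus strand), S100a9 (chr3:90695672-90695971, minus strand), Csf3r (chr4:126024409-126024708, plus strand) and Itgam (chr7:128062390-128062689, plus strand).
S100a8: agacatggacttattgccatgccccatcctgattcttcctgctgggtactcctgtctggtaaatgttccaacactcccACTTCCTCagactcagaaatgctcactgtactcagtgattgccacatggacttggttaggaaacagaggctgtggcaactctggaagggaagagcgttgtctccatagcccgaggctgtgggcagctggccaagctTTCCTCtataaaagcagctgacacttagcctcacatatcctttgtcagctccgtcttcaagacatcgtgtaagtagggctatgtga
S100a9: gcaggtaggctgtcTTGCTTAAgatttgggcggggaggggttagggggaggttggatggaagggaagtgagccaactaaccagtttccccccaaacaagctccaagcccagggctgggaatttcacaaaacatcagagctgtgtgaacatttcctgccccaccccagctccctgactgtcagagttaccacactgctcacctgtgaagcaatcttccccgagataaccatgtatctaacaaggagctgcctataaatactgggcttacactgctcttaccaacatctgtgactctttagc
Csf3r: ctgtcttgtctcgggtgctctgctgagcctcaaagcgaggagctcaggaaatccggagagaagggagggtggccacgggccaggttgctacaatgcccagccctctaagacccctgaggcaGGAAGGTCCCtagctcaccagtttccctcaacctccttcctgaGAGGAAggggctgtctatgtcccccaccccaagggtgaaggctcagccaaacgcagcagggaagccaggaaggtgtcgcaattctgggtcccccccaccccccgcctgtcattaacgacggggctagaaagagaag
Itgam: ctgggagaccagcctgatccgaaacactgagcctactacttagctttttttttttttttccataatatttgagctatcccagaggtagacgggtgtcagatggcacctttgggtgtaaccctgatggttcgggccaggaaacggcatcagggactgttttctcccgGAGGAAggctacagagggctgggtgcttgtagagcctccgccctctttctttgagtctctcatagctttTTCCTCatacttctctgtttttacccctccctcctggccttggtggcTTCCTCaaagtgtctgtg
S100a8 holds 2 matches to GAGGAA, 1 of which lies inside a match to GAGGAAGT, S100a9 holds 1 match to TTGCNNAA, Csf3r holds 1 kB match and 1 match to GAGGAA, and Itgam holds 3 matches to GAGGAA. Of the 32544 promoters of 300 bases with distinct sequences, 28.1% hold GAGGAA, 3.11% GAGGAAGT, 10.8% TTGCNNAA and 8.49% the kB motif. A promoter was found for 28 of the 38 members, of which 15 hold GAGGAA, 1 GAGGAAGT, 7 TTGCNNAA and 2 the kB motif. A member was counted if any of its promoters held a match, so these counts per gene are not directly comparable with the shares per promoter. These matches describe letters only and say nothing of binding in kidney.

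Each library held 16367403 to 25787659 reads counted in genes, and the 38 members together took 5123 to 9436 of them, or 0.0216% to 0.0409%. A floor of 3 reads corresponded to 0.112 to 0.202 CPM, where CPM is the count per 1000000 reads of the library total times its TMM scaling factor. Proximal tubule genes, which mark the main cell type of kidney cortex, had a summed level over 8 genes of 6020 to 8779 CPM in C59A, 5586 to 7290 CPM in C59S and 9511 to 10454 CPM in WT. The 8 genes did not move together: in C59A over WT 3 were higher and 5 lower. Slc22a6 passed the test as higher and Slc5a2 as lower in C59A against WT, where 5.7% of all genes tested passed. Slc22a6 also passed as higher in C59A than in C59S, where 5.91% of all genes passed. Mitochondrial genes took 20.8, 28.8 and 24.9% of the counts in C59A libraries 1 to 3, 25.3, 20.5 and 40.6% in C59S and 19.6, 18.8 and 16.4% in WT. The libraries also differed in sex-linked genes: Ddx3y, a gene of the Y chromosome, had 43.2 to 46.9 CPM in C59A, 0 to 0.810 CPM in C59S and 0 to 0.0953 CPM in WT, and Xist, expressed from an inactive X, had 0.191 to 0.725 CPM in C59A, 885 to 895 CPM in C59S and 816 to 1276 CPM in WT. Allele and sex therefore cannot be told apart in any difference of C59A from C59S or WT below. Nfkb1 itself had 39.7, 31.0 and 29.2 CPM in C59A, 39.7, 37.5 and 36.9 CPM in C59S and 32.2, 33.8 and 36.8 CPM in WT, and its level passed the test in no comparison. The codon change itself cannot be seen in gene counts.

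Of the 38 markers, the 5 with the highest levels per length in WT kidney were all from the macrophage and monocyte list, and the 4 neutrophil genes stood at places 21 (S100a9), 25 (Csf3r), 29 (S100a8) and 35 (Retnlg). By deposited FPKM, a level per length that allows genes to be compared, Lyz2 (lysozyme of myeloid cells) averaged 15.6 ± 8.56 FPKM in WT (SD, n = 3, as for all such values), Tyrobp 15.3 ± 4.62 FPKM and Fcer1g 15.03 ± 3.54 FPKM. The last 2 encode adaptor chains of myeloid and NK cell receptors. Csf1r, the receptor for the macrophage growth factor CSF1, followed with 12.6 ± 4.31 FPKM and Mertk with 12.2 ± 0.819 FPKM, and the ranges of these 5 genes over the libraries overlapped. The lowest were Cd163 with 0.125 ± 0.0279 FPKM and Ms4a1 with 0.0765 ± 0.0323 FPKM, ranks 37 and 38. Ptprc, the leukocyte common antigen CD45, averaged 0.865 ± 0.255 FPKM in C59A, 0.975 ± 0.293 FPKM in C59S and 0.859 ± 0.268 FPKM in WT. Against that level, S100a9 averaged 7.38 ± 0.973 FPKM in C59A, 1.95 ± 1.43 FPKM in C59S and 0.883 ± 0.270 FPKM in WT, and its place in the order of the 38 was 8 in C59A, 15 in C59S and 21 in WT. On the CPM scale Ptprc had 19.3, 18.4 and 10.4 CPM in C59A, 12.0, 20.0 and 22.1 CPM in C59S and 10.6, 17.2 and 20.4 CPM in WT, with all 3 genotypes overlapping. S100a8 stood, by FPKM, at place 11 in C59A, 19 in C59S and 29 in WT.

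**Figure D1:**
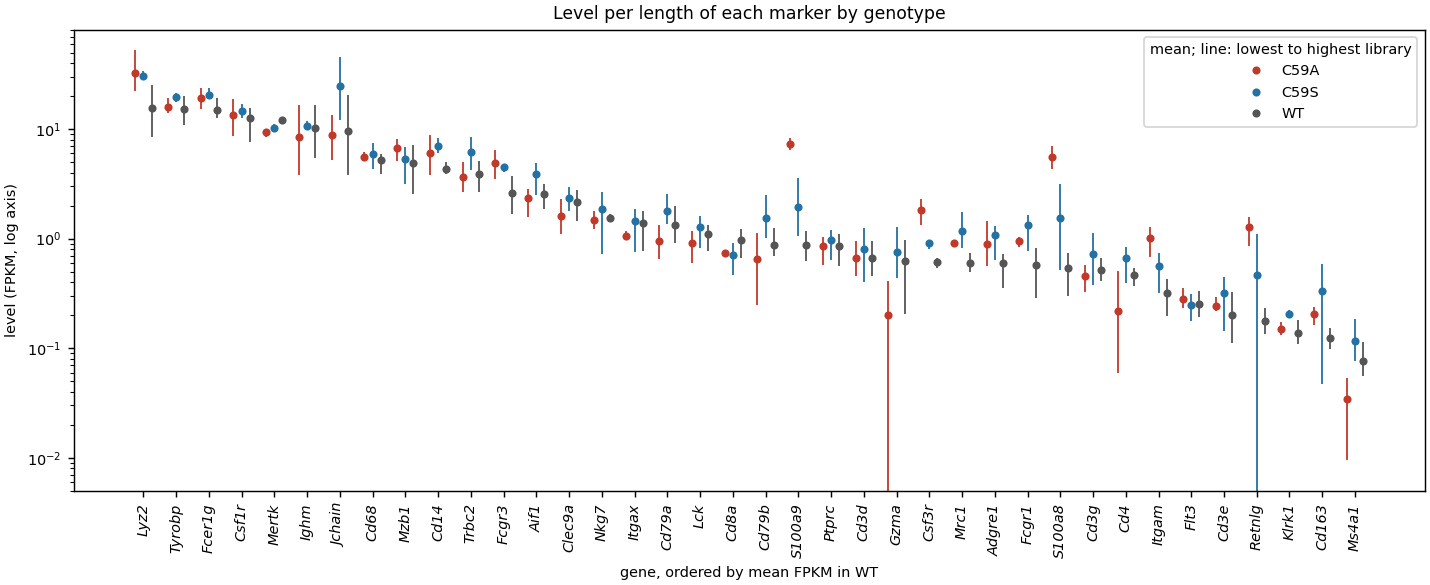
Level per length (FPKM, log axis) of the 38 leukocyte markers, ordered by their mean in WT, with the mean as a point and a line from the lowest to the highest of the 3 libraries of each genotype; lines that reach the bottom edge include a library at 0. S100a9, S100a8, Csf3r and Retnlg stand above their neighbours in C59A, with 7.38 FPKM of S100a9 in C59A against 0.883 FPKM in WT.

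Of the 4 neutrophil markers, 3 were higher in C59A than in WT (S100a8, S100a9 and Csf3r) and Retnlg did not pass the test. Together with Itgam they made up the 4 of 38 leukocyte markers called in C59A against WT, all higher, while 5.7% of the 17114 genes tested were called and 3.24% of the 17114 were called as higher. A gene is called at an edgeR adjusted p under 0.05 (quasi-likelihood test, Benjamini-Hochberg adjustment over all genes tested). In RNA of a whole organ, more cells of a type and more RNA per cell cannot be told apart.

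S100a8 (chr3:90668978-90670035, plus strand, GRCm38) had 3.08, 4.99 and 3.67 CPM in C59A libraries 1 to 3, 0.634, 0.361 and 2.23 CPM in C59S and 0.211, 0.402 and 0.524 CPM in WT. Behind these levels stood 51, 88 and 77 reads in C59A, 17, 8 and 33 in C59S and 5, 8 and 11 in WT. All C59A libraries lay above all others, and C59S library 3 lay apart from the other C59S libraries, which were close to WT. The log2 fold change of C59A over WT was 3.36 ± 0.61 (SE; edgeR adjusted p = 0.00905), and the adjusted p was 0.0504 without WT library 1.

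S100a9, its partner in calprotectin and its neighbour in the S100 cluster of chromosome 3 (chr3:90692632-90695721, minus strand), had 3.92, 3.40 and 4.34 CPM in C59A, 0.560, 0.632 and 1.89 CPM in C59S and 0.337, 0.453 and 0.620 CPM in WT. The pattern was that of S100a8, with C59S library 3 again the highest outside C59A. S100a9 rose by a log2 fold change of 3.04 ± 0.48 in C59A over WT (edgeR adjusted p = 0.00397), and it was called without any 1 of the 9 libraries. Both genes lie on the chromosome of Nfkb1, 44.9 Mb away. The member Fcgr1 lies there too, 39.3 Mb away, and was called in no comparison.

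Csf3r (chr4:126024550-126044440, plus strand) had 8.45, 6.86 and 4.81 CPM in C59A, 2.95, 3.47 and 3.51 CPM in C59S and 1.98, 2.46 and 2.29 CPM in WT. The 3 genotypes did not overlap in this gene, with C59A highest and WT lowest. Its log2 fold change in C59A over WT was 1.58 ± 0.26 (edgeR adjusted p = 0.00458), and it too was called without any 1 of the libraries.

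Retnlg, a resistin-like gene of mouse neutrophils, rested on few reads, with 16, 15 and 11 in C59A, 5, 0 and 10 in C59S and 2, 2 and 3 in WT. C59A lay above WT in every library, but C59S library 3 lay within the range of C59A. The log2 fold change of 2.77 ± 0.88 in C59A over WT did not pass (edgeR adjusted p = 0.0953). The median log2 fold change of the 4 neutrophil genes was 2.90, against -0.02 over all genes tested.

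The summed level of the 4 neutrophil genes was 16.4, 16.1 and 13.3 CPM in C59A, 4.33, 4.47 and 8.30 CPM in C59S and 2.61, 3.42 and 3.58 CPM in WT. The genotypes overlapped in the summed level of 8 red cell and platelet genes, which was 426, 540 and 315 CPM in C59A, 579, 253 and 452 CPM in C59S and 420, 162 and 400 CPM in WT. Of the 8, 0 were called in any comparison. In C59A over WT 7 of 8 were positive, with a median log2 fold change of 0.48, and 3 lay wholly above WT, against 12.6% of all genes. In C59S over WT 7 of 8 were positive, with a median of 0.50, and 2 lay wholly above WT, against 11.2% of all genes. Fat cell genes did differ between libraries. The 7 adipocyte genes, among them Adipoq, Plin1, Lep and Fabp4, summed to 169, 162 and 273 CPM in C59A, 153, 639 and 1277 CPM in C59S and 63.7, 27.4 and 55.6 CPM in WT, with 0 of 7 called. Adipoq, the adipocyte hormone adiponectin, had 67, 3 and 331 reads in C59A, 6, 937 and 590 in C59S and 0, 1 and 1 in WT. C59S library 3 had the highest adipocyte sum and the highest neutrophil sum outside C59A, and C59S library 2, with the next highest adipocyte sum, had 4.47 CPM of neutrophil genes. With log2 of the summed adipocyte level as a covariate, 0 of 38 leukocyte markers were called in C59A against WT. That fit called 247 of all genes tested, against 975 in the main fit. In it S100a9 had a log2 fold change of 2.09 (edgeR adjusted p = 0.123) and Csf3r one of 1.60 (edgeR adjusted p = 0.0787). Every WT library had a lower adipocyte sum than every C59A library, so this covariate overlaps with genotype. The part of fat cells in the neutrophil values was not tested.

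**Figure D2:**
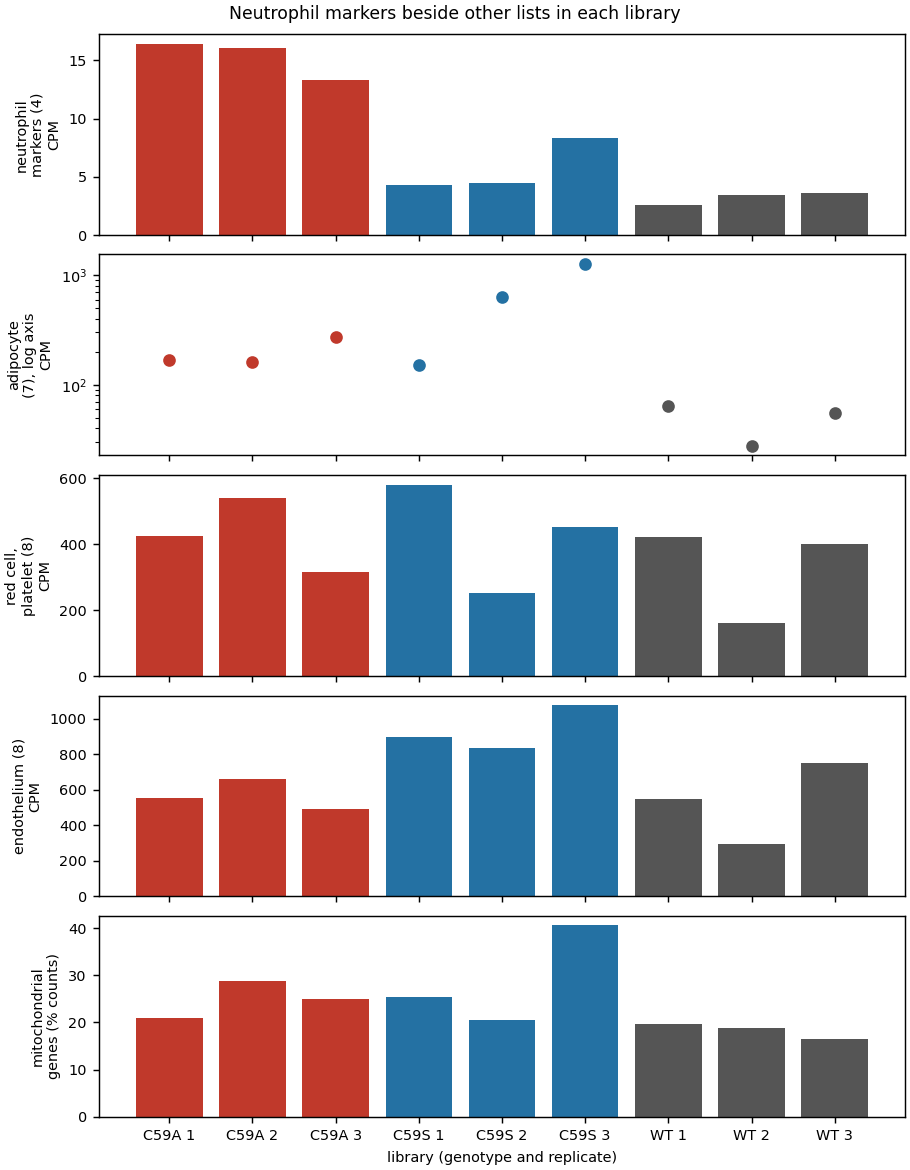
Summed level of the neutrophil markers in each library (CPM, top) above the summed levels of adipocyte genes (log axis), of red cell and platelet genes and of endothelial genes, and the share of counts from mitochondrial genes (%); the number of genes is in brackets. The 3 C59A libraries have 13.3 to 16.4 CPM of neutrophil markers and the other 6 libraries have 2.61 to 8.30 CPM, while the red cell and platelet sums overlap between genotypes.

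A wider list of 14 neutrophil genes was read for comparison, of which 4 passed the filter on low counts and 0 were called in any comparison. In C59A over WT 2 of these 4 were positive and 2 negative, with a median log2 fold change of 0.14, and in C59A over C59S 1 was positive and 3 were negative. Cxcr2, a chemokine receptor that guides neutrophils, had 10, 11 and 14 reads in C59A, 7, 3 and 3 in C59S and 0, 1 and 5 in WT, and its log2 fold change of 2.68 ± 0.76 in C59A over WT did not pass (edgeR adjusted p = 0.0640). Cxcr2 was over the filter in C59A libraries alone, so it was tested because it was high there. The log2 fold changes of the other 3 in C59A over WT were 0.95 ± 0.57 for Mmp9, a gelatinase, -0.67 ± 0.47 for Ltf, which encodes lactoferrin, and -1.74 ± 0.98 for Hdc, which makes histamine, and the groups overlapped in each. Mmp8, the neutrophil collagenase, was under the filter with 4, 9 and 10 reads in C59A, 2, 0 and 1 in C59S and 0, 0 and 0 in WT. Its scaled reads in C59A were 8.98-fold those of a floor of 3 reads over the WT group, with no test. That ratio takes no account of counting error in C59A, and it was computed because WT had no reads. Mpo (myeloperoxidase) and Elane (neutrophil elastase), genes of immature neutrophils in bone marrow, had 0 or 1 read in each library. Ngp and Camp (granule proteins) had 0 to 3. Ltf had more, with 24, 33 and 45 reads over the C59A, C59S and WT groups. In the same order Fpr1 had 7, 13 and 9 reads, Cxcl2 14, 7 and 16, and Il1r2 14, 5 and 8. Trem1 had 3, 4 and 0 and Stfa2l1 2, 0 and 0, and of these genes only Ltf was tested. Hdc held 76.1% to 98.9% of this list's summed level, so that sum is not read as neutrophils. The 14 genes of this list, like the adipocyte genes above, were named after their values were seen.

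Itgam was the only macrophage and monocyte marker of 14 to pass in C59A against WT. It (chr7:128062640-128118491, plus strand) had 5.37, 6.57 and 3.38 CPM in C59A, 1.64, 3.11 and 3.78 CPM in C59S and 2.19, 1.01 and 1.67 CPM in WT. C59A did not overlap WT, and C59S overlapped both. Itgam rose by a log2 fold change of 1.64 ± 0.39 (edgeR adjusted p = 0.0317), but this call was lost without any 1 of C59A library 1 or 2 or WT library 1, 2 or 3, with adjusted p from 0.0525 to 0.0942. Neutrophils carry the protein of this gene as well as macrophages.

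The other macrophage genes did not pass in C59A against WT. Of the 14, 12 had a positive log2 fold change, with a median of 0.52. Over all genes tested 47.6% were positive, with a median of -0.02. The summed level of the 14 averaged 225 CPM in C59A and 193 CPM in WT. With library totals in place of TMM factors it averaged 212 per 1000000 reads in C59A and 214 in WT. Adgre1, which encodes the macrophage antigen F4/80, had 2.17, 4.76 and 1.81 CPM in C59A, 2.13, 4.15 and 4.25 CPM in C59S and 1.18, 2.36 and 2.38 CPM in WT. Cd68, a lysosomal protein of macrophages, had 7.85, 6.97 and 6.44 CPM in C59A, 5.60, 7.80 and 9.38 CPM in C59S and 5.06, 7.39 and 7.58 CPM in WT. In both genes the 3 genotypes overlapped. Csf1r, with 42.5 to 93.7 CPM in C59A, 61.9 to 83.9 CPM in C59S and 38.04 to 77.5 CPM in WT, overlapped too. Tyrobp had 9.39 to 13.03 CPM in C59A, 12.0 to 14.2 CPM in C59S and 7.37 to 13.6 CPM in WT, and Fcer1g had 13.4 to 21.0 CPM in C59A, 16.7 to 20.9 CPM in C59S and 11.4 to 17.0 CPM in WT. Cd163, a scavenger receptor for haemoglobin, was low, with 0.907 to 1.33 CPM in C59A, 0.261 to 3.24 CPM in C59S and 0.553 to 0.858 CPM in WT, and C59S library 1 lay below all WT libraries.

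Fcgr3, an activating receptor for IgG, had 8.39, 11.3 and 6.05 CPM in C59A, 7.24, 8.03 and 8.30 CPM in C59S and 2.99, 4.23 and 6.53 CPM in WT. C59A library 3 lay below WT library 3, so the groups overlapped, and the log2 fold change of 0.91 ± 0.29 in C59A over WT did not pass (edgeR adjusted p = 0.0989). Lyz2 had 30.9, 70.9 and 29.2 CPM in C59A, 40.4, 44.7 and 37.3 CPM in C59S and 11.3, 33.7 and 17.9 CPM in WT. Its log2 fold change of 1.06 ± 0.45 in C59A over WT had an edgeR adjusted p of 0.229, and the copy Lyz1 may share its reads.

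Mertk, a receptor kinase used to clear dying cells and not confined to leukocytes, had 44.4, 42.6 and 36.6 CPM in C59A, 45.5, 48.4 and 41.8 CPM in C59S and 57.0, 50.05 and 55.2 CPM in WT. It was the macrophage marker in which every library of both alleles lay below every WT library. Its log2 fold change was -0.39 ± 0.12 in C59A over WT (edgeR adjusted p = 0.0755) and -0.26 ± 0.12 in C59S over WT (edgeR adjusted p = 0.274), so neither passed.

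Of all 38 markers, 7 had every C59A library above every WT library (Itgam, Mrc1, Cd163, S100a8, S100a9, Csf3r and Retnlg) and 2 had every C59A library below (Mertk and Ms4a1). Over all genes tested, 12.6% lay wholly above and 12% wholly below. The count above is 7 of 38, and 4 of the 7 are the neutrophil genes. By sign alone the markers were balanced, with 20 of 38 positive and a median log2 fold change of 0.07 in C59A over WT.

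**Figure D3:**
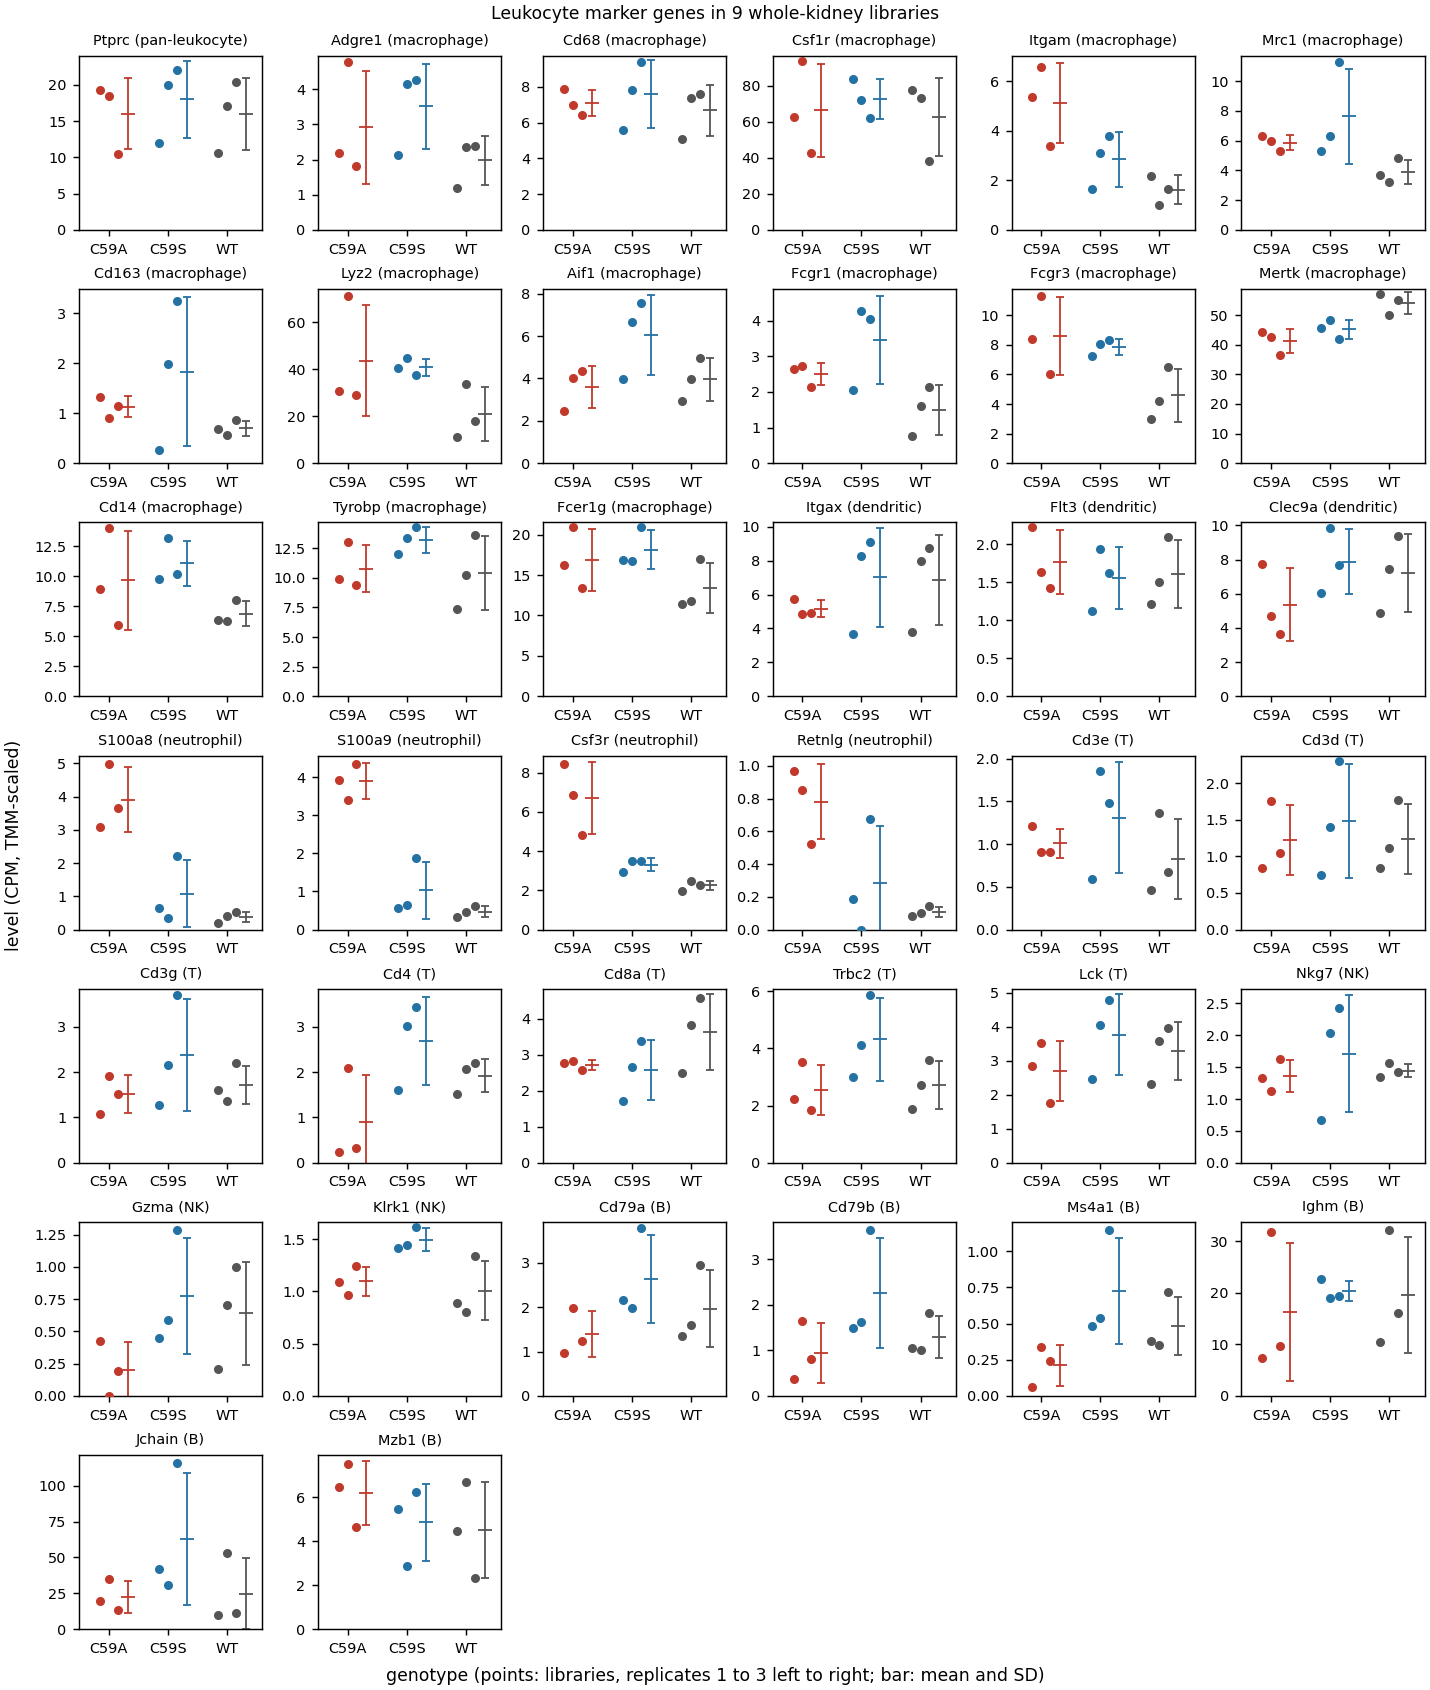
Level (CPM) of each of the 38 leukocyte markers in the 9 libraries, by genotype, with points for the 3 libraries and a bar for the mean and SD. In S100a8, S100a9 and Csf3r the 3 C59A points lie above all others, with S100a9 at 3.40 to 4.34 CPM in C59A and 0.337 to 0.620 CPM in WT, while Ptprc, Cd68 and most lymphocyte genes overlap between the genotypes.

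Lymphocyte and dendritic cell genes gave 0 calls in C59A against WT, where 5.7% of all genes tested were called. These were 0 of 3 dendritic, 0 of 7 T cell, 0 of 3 NK and 0 of 6 B and plasma cell genes. Of these 19, 0 had an unadjusted edgeR p under 0.05, against 3600 of the 17114 genes tested. Cd3e, a chain of the T cell receptor complex, had 1.21, 0.907 and 0.906 CPM in C59A, 0.597, 1.85 and 1.48 CPM in C59S and 0.463, 1.36 and 0.667 CPM in WT. Cd8a, the co-receptor of cytotoxic T cells, had 2.78, 2.83 and 2.57 CPM in C59A, 1.72, 2.66 and 3.37 CPM in C59S and 2.49, 3.82 and 4.58 CPM in WT. Both overlapped between all genotypes. Trbc2, a constant region of the T cell receptor beta chain, had 2.23, 3.51 and 1.86 CPM in C59A, 2.98, 4.11 and 5.87 CPM in C59S and 1.90, 2.72 and 3.58 CPM in WT. Lck, a kinase of T cell receptor signalling, had 2.84, 3.51 and 1.76 CPM in C59A, 2.46, 4.06 and 4.79 CPM in C59S and 2.32, 3.57 and 3.96 CPM in WT. These overlapped as well, as did the receptor chains Cd3d, with 0.845 to 1.76 CPM in C59A, 0.746 to 2.29 CPM in C59S and 0.843 to 1.76 CPM in WT, and Cd3g, with 1.09, 1.93 and 1.53 CPM in C59A, 1.27, 2.17 and 3.71 CPM in C59S and 1.60, 1.36 and 2.19 CPM in WT.

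Cd4, the co-receptor of helper T cells, was the T cell gene with the highest SD in C59A, with 0.242, 2.10 and 0.334 CPM in C59A, 1.60, 3.02 and 3.44 CPM in C59S and 1.52, 2.06 and 2.19 CPM in WT. C59A libraries 1 and 3 lay below all others, and C59A library 2 lay among the WT libraries. The log2 fold change of -1.59 ± 0.65 in C59A over C59S did not pass (edgeR adjusted p = 0.180), and it was -3.17 (edgeR adjusted p = 0.00574) without C59A library 2.

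Itgax, the integrin chain CD11c of dendritic cells, had 5.74, 4.87 and 4.91 CPM in C59A, 3.69, 8.26 and 9.11 CPM in C59S and 3.79, 7.998 and 8.72 CPM in WT. Clec9a, a receptor for dead cells on a subset of dendritic cells, had 7.73, 4.70 and 3.62 CPM in C59A, 6.04, 9.83 and 7.69 CPM in C59S and 4.84, 7.44 and 9.39 CPM in WT, and it overlaps Clec1b on the same strand. Flt3, a growth factor receptor of dendritic cell precursors, had 1.43 to 2.23 CPM in C59A, 1.12 to 1.94 CPM in C59S and 1.22 to 2.10 CPM in WT. None of these 3 separated any genotypes.

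Nkg7, a cytotoxic granule protein, had 1.33, 1.13 and 1.62 CPM in C59A, 0.672, 2.03 and 2.43 CPM in C59S and 1.35, 1.56 and 1.43 CPM in WT. Gzma, the protease granzyme A, rested on few reads, with 7, 0 and 4 reads in C59A, 12, 13 and 19 in C59S and 5, 14 and 21 in WT. Klrk1, the activating receptor NKG2D, had 1.09, 0.963 and 1.24 CPM in C59A, 1.42, 1.44 and 1.62 CPM in C59S and 0.885, 0.805 and 1.33 CPM in WT, with every C59S library above all others.

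B and plasma cell genes varied widely between libraries of 1 genotype. Cd79a, a signalling chain of the B cell receptor, had 0.966, 1.98 and 1.24 CPM in C59A, 2.16, 1.99 and 3.78 CPM in C59S and 1.35, 1.61 and 2.96 CPM in WT. Ms4a1, which encodes CD20, had 1, 6 and 5 reads in C59A, 13, 12 and 17 in C59S and 9, 7 and 15 in WT. C59A lay below both other genotypes in Ms4a1.

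The plasma cell gene Jchain, which joins polymeric antibodies, had 19.7, 34.8 and 13.01 CPM in C59A, 42.0, 30.7 and 116 CPM in C59S and 9.77, 53.2 and 11.3 CPM in WT. C59S library 3 and WT library 2 stood apart within their own groups, so a mean of this gene rests on single libraries. Ighm, the IgM heavy chain, had 7.37, 31.8 and 9.77 CPM in C59A, 22.7, 19.0 and 19.4 CPM in C59S and 10.5, 32.3 and 16.02 CPM in WT, with C59A library 2 and WT library 2 highest. Mzb1, a chaperone of antibody-making cells, had 4.62 to 7.48 CPM in C59A, 2.89 to 6.21 CPM in C59S and 2.34 to 6.69 CPM in WT.

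In C59S against WT, 0 of 38 markers were called, as were 0% of the 17114 genes tested by edgeR. DESeq2 called 670 genes and 1 marker (Mrc1), and limma voom with quality weights called 0 genes and 0 markers. At an unadjusted edgeR p under 0.05 there were 6 of 38 markers and 18.1% of all genes. The sample labels number the replicates but state no pairing. Deviations of same-numbered C59S and WT libraries from their group means were positively correlated, though the submitters' own names number them differently in the 2 groups. A fit of these 2 groups with the replicate number as a block called 638 genes, 247 higher and 391 lower, and 0 markers. The comparisons of both alleles share the WT libraries.

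Most markers lay on the higher side in C59S with TMM scaling. The log2 fold change over WT was positive in 35 of 38, with a median of 0.50, against 8752 of 17114 genes and a median of 0.01. The exceptions were Mertk, Flt3 and Cd8a. The smaller of the positive values depend on the scaling. With library totals in place of TMM factors, Ptprc averaged 17.1 per 1000000 reads in C59S and 17.7 in WT. The dendritic cell genes then summed to a mean of 15.7 in C59S and 17.3 in WT. The other lineage sums kept a higher mean in C59S, with T cell genes at 17.4 against 17.0. In 6 of 38 every C59S library lay above every WT library (Mrc1, Lyz2, Fcgr3, Cd14, Csf3r and Klrk1) and in 1, Mertk, every one lay below. Over all genes tested, 11.2% lay wholly above and 11.3% wholly below.

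Mrc1, the mannose receptor of tissue macrophages, had 6.28, 6.01 and 5.29 CPM in C59A, 5.30, 6.32 and 11.3 CPM in C59S and 3.67, 3.22 and 4.82 CPM in WT. Both alleles lay above WT, and C59S library 3 lay apart from the other 2. Its log2 fold change of 0.95 ± 0.29 in C59S over WT did not pass (edgeR adjusted p = 0.153) and turned to -0.0857 with the summed adipocyte level as a covariate.

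Cd14, the co-receptor for bacterial lipopolysaccharide, had 8.94, 14.1 and 5.96 CPM in C59A, 9.77, 13.2 and 10.2 CPM in C59S and 6.32, 6.24 and 8.06 CPM in WT, with a log2 fold change of 0.69 ± 0.27 in C59S over WT (edgeR adjusted p = 0.228). Fcgr1, the high-affinity receptor for IgG, had 2.66, 2.72 and 2.15 CPM in C59A, 2.05, 4.29 and 4.05 CPM in C59S and 0.758, 1.61 and 2.15 CPM in WT, with a log2 fold change of 1.198 ± 0.40 in C59S over WT (edgeR adjusted p = 0.179). Cd14 was separated from WT in C59S, Fcgr1 was not, and neither passed. Fcgr3 had a log2 fold change of 0.78 ± 0.29 (edgeR adjusted p = 0.212), with C59S wholly above WT.

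S100a8 had a log2 fold change of 1.43 ± 0.64 in C59S over WT that did not pass (edgeR adjusted p = 0.270) and that rested on library 3. That library had the highest mitochondrial share and the highest adipocyte sum, and with either as a covariate the value was -0.100 (mitochondrial share) or -0.0534 (adipocyte sum). Because both covariates peak in library 3, these fits cannot tell a covariate from that library, and the cause was not tested.

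The summed level of the 14 macrophage genes was 210, 299 and 168 CPM in C59A, 237, 251 and 238 CPM in C59S and 190, 210 and 181 CPM in WT. Every C59S library lay above every WT library, while C59A spanned both. Scaled by library totals in place of TMM factors, the sum was 246, 266 and 190 per 1000000 reads in C59S and 214, 226 and 202 in WT, and the groups overlapped. Of a further 20 macrophage and monocyte genes, 20 had a positive log2 fold change in C59S over WT, with a median of 0.65, and 0 were called. Endothelial genes had the same sign: 8 of 8 were positive in C59S over WT with a median of 0.86, and their summed level was 555, 659 and 495 CPM in C59A, 896, 837 and 1077 CPM in C59S and 551, 295 and 753 CPM in WT. The part of endothelium in these leukocyte values was not tested.

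**Figure D4:**
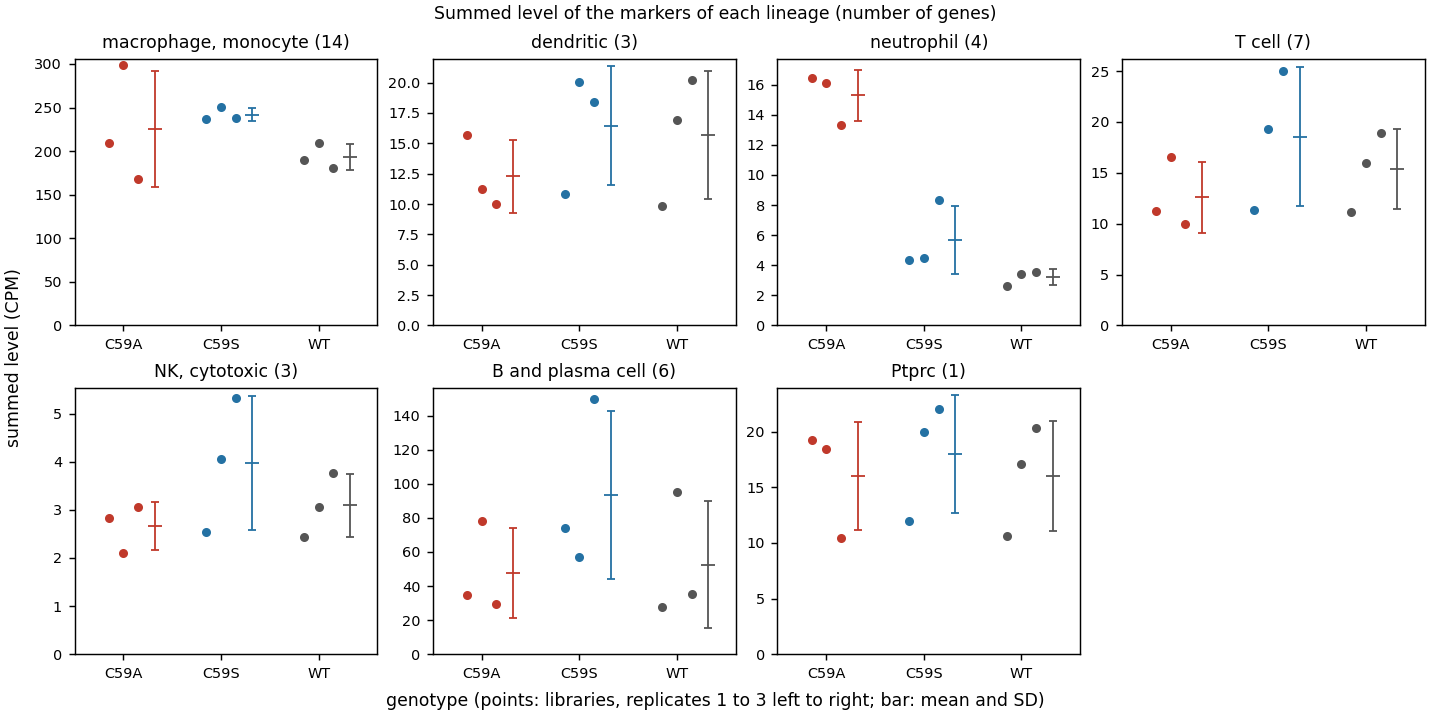
Summed level (CPM) of the markers of each lineage in the 9 libraries, by genotype, with points for libraries and a bar for the mean and SD; the number of genes is in brackets. The neutrophil sum is 13.3 to 16.4 CPM in C59A, 4.33 to 8.30 CPM in C59S and 2.61 to 3.58 CPM in WT, and Ptprc overlaps between the genotypes.

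In C59A against C59S, 2 of the 4 neutrophil markers were higher, S100a9 and Csf3r, and S100a8 and Retnlg did not pass. S100a9 and Csf3r were the 2 called among the 38 markers, a share near the 5.91% of all genes tested that were called. As higher, 3.35% of all genes were called. S100a9 had a log2 fold change of 1.98 ± 0.45 in C59A over C59S (edgeR adjusted p = 0.0266), and the call was lost without any 1 of C59A library 1 or 3 or C59S library 1 or 2, with adjusted p from 0.0691 to 0.0982. Csf3r had one of 1.02 ± 0.25 (edgeR adjusted p = 0.0375), and it was lost without any 1 of C59A libraries 1 and 2, the 3 C59S libraries and WT library 1, with adjusted p from 0.0512 to 0.149. With the replicate block in all 9 libraries S100a9 alone was called.

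S100a8 had a log2 fold change of 1.93 ± 0.56 in C59A over C59S that did not pass (edgeR adjusted p = 0.0678), and it was 2.94 (edgeR adjusted p = 0.0103) without C59S library 3. Itgam had one of 0.86 ± 0.38 (edgeR adjusted p = 0.205). In 3 of 38 markers every C59A library lay above every C59S library (S100a8, S100a9 and Csf3r), against 14.7% of all genes. In 4 of 38 every C59A library lay below (Gzma, Klrk1, Cd79a and Ms4a1), against 14.5% of all genes.

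The remaining lineages leaned the other way in C59A against C59S, without calls. The log2 fold change was negative in 28 of 38 markers, with a median of -0.29 over the 38 and of -0.01 over all genes, and the median was -1.07 over the 6 B and plasma cell genes. Ms4a1 had a log2 fold change of -1.67 ± 0.63 (edgeR adjusted p = 0.141), Cd79b, the partner of Cd79a, one of -1.23 ± 0.54 (edgeR adjusted p = 0.196), and Aif1, the actin-binding protein Iba1 of macrophages, one of -0.73 ± 0.31 (edgeR adjusted p = 0.190). Cd79b had 0.362, 1.64 and 0.810 CPM in C59A, 1.49, 1.62 and 3.64 CPM in C59S and 1.05, 1.01 and 1.81 CPM in WT, and Aif1 had 2.48, 4.02 and 4.34 CPM in C59A, 3.95, 6.68 and 7.56 CPM in C59S and 2.95, 3.97 and 4.96 CPM in WT. Both overlapped between the alleles. The endothelial genes Pecam1 and Cdh5 were called lower in C59A than in C59S, with log2 fold changes of -0.92 ± 0.22 (edgeR adjusted p = 0.0396) and -0.95 ± 0.24 (edgeR adjusted p = 0.0478).

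**Figure D5:**
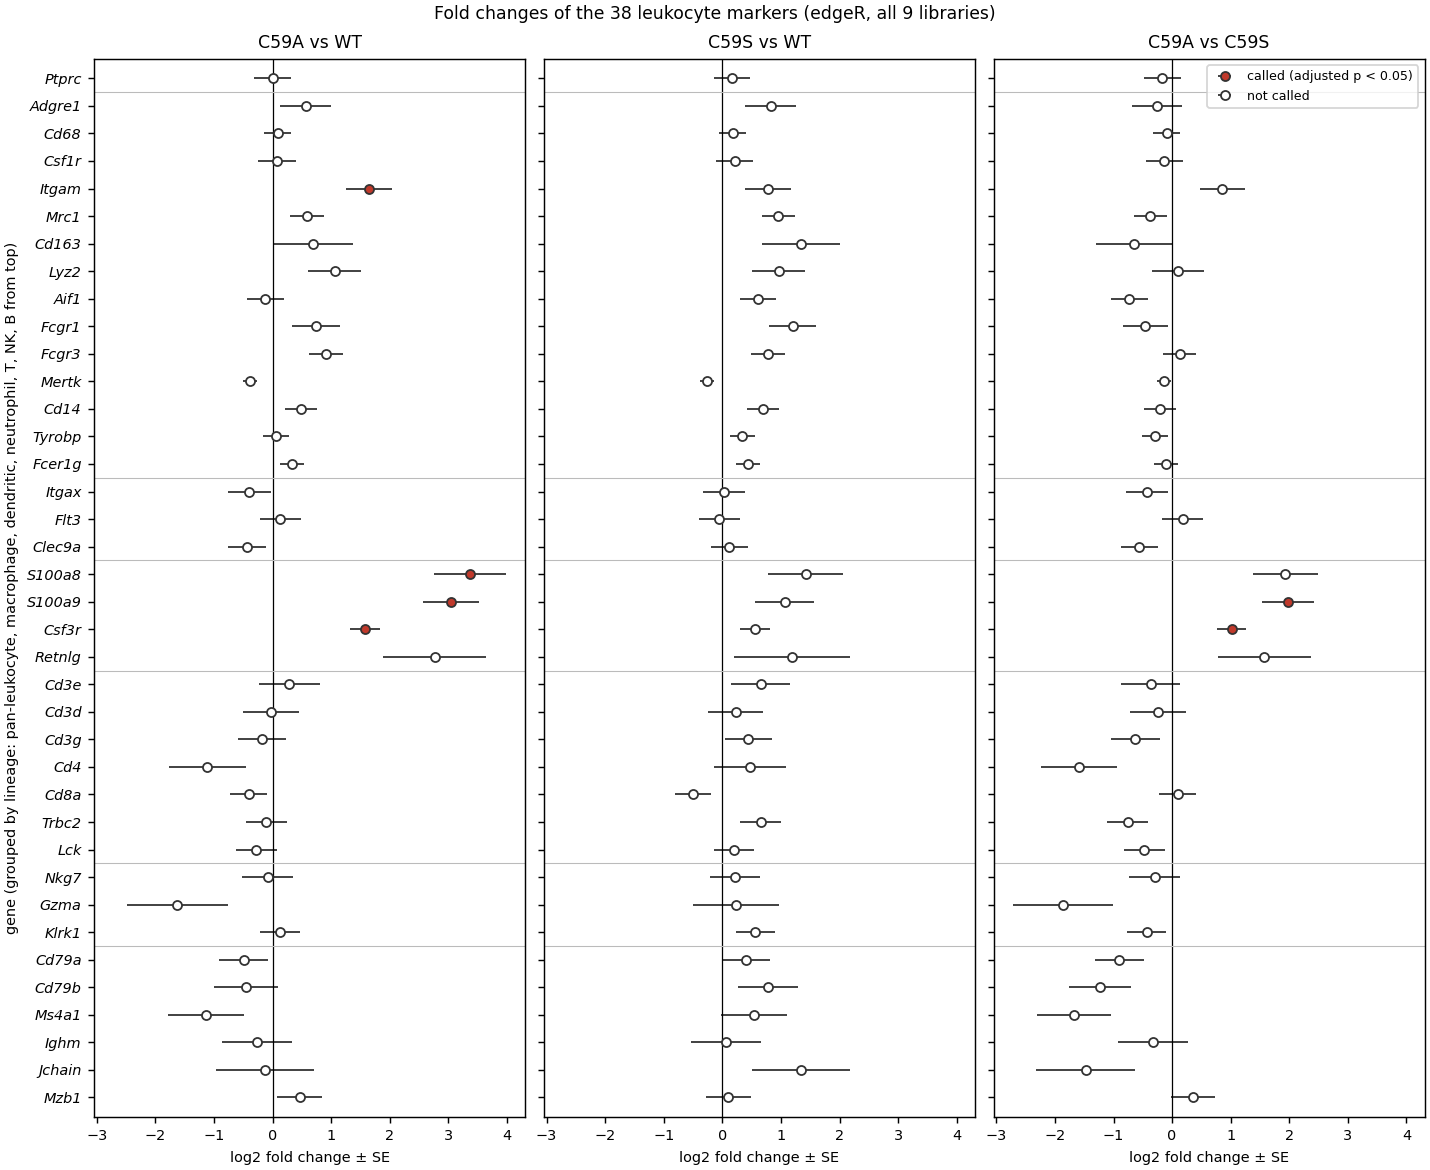
Log2 fold change with its SE of each of the 38 leukocyte markers in C59A against WT, C59S against WT and C59A against C59S, from 1 edgeR fit of all 9 libraries; filled points were called at an adjusted p under 0.05. In C59A against WT, S100a8, S100a9, Csf3r and Itgam are called; in C59S against WT 35 of 38 points lie above 0 and 0 are called; in C59A against C59S, S100a9 and Csf3r are called.

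The wider lists of other leukocyte genes held 80 genes, of which 58 were tested. Of these 58, 1 was called in C59A against WT, where 5.7% of all genes tested were called, 0 in C59S against WT, where 0% were, and 1 in C59A against C59S, where 5.91% were. The called gene was Ms4a2 both times, the beta chain of the IgE receptor of mast cells and basophils, with 0.543, 0.283 and 0.667 CPM in C59A, 1.38, 2.12 and 1.69 CPM in C59S and 1.77, 1.36 and 2.15 CPM in WT. C59A lay wholly below both, with a log2 fold change of -1.80 ± 0.40 over WT (edgeR adjusted p = 0.0233) and -1.77 ± 0.40 over C59S (edgeR adjusted p = 0.0277). The mast cell proteases Cpa3, Mcpt4, Tpsb2 and Cma1 were under the filter, with 0 to 7 reads in any library, and with the levels of Ms4a2 they were named after their values were seen. Of 12 further T cell genes 11 were tested and 0 called in any comparison, as were 0 of 20 further macrophage genes, 0 of 12 tested of 14 further B and plasma cell genes, 0 of 7 dendritic cell genes and 0 of 3 tested of 8 NK genes.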

How the data were processed

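Per the labels' protocols, RNA was taken with TRIzol, and libraries came from NEBNext Ultra kit reagents. The submitters' processing notes name the build GRCm38 and, with no settings, the counter featureCounts 1.5.0-p3, the aligner HISAT2 2.0.5, DESeq2 1.20.0, fastp and CASAVA 1.8. The authors deposited raw read counts per gene and FPKM values, which equal the counts over gene length and 1 constant per library, 0.802 to 1.15 times the total count. Strand setting and the handling of shared reads are not given in the sources used here, so genes that overlap others, such as Csf1r with Hmgxb3 on the opposite strand, and close copies are uncertain.

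Groups were taken from the genotype labels. No 2 libraries of a genotype were duplicates (chi-square per degree of freedom 22.3 to 123). Counts were filtered with filterByExpr (17114 genes kept), scaled with TMM factors (0.797 to 1.124) and fitted with edgeR 4.0.16 in R 4.3.3 in 1 robust quasi-likelihood model of all 9 libraries, with Benjamini-Hochberg adjustment over all genes tested. FPKM served to compare levels between genes. The scripts were tested on simulated data. Counting limits and floors cover counting error only.

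The members and all gene lists were chosen with earlier results of these data known. Values per library are given for called members, for up to 3 members per lineage with the smallest p and for the defining genes of each lineage. The fold change of a member is printed where its unadjusted p was under 0.05. Of other genes in the lists, those called are named, as are a few said to be chosen later. Among the called genes are the Y-linked Eif2s3y, Kdm5d and Uty, whose levels are not printed. The core GAGGAA was added to the motifs after the promoters were read.

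Deviations of same-numbered C59S and WT libraries were positively correlated (0.318, 0.195 and 0.256), but the labels state no pairing. Libraries of different number also reached a correlation of 0.294 (C59A library 2 with C59S library 1). Alternatives were RLE factors, library totals, no filter or 1 CPM in 3 libraries, DESeq2 1.42.0, limma 3.58.1 (voom, or log2 of FPKM plus 1 or 0.1 with a mean FPKM of at least 0.1), only the 2 groups, a replicate block, mitochondrial genes left out or their share as a covariate, and each library left out. The block within 2 groups and the adipocyte covariate, which is log2 of the summed level, were added after seeing the data.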

Additional observations from a re-analysis of the deposited data

Results flagged for a closer look

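The effects of the alleles against WT differed from each other in 2 leukocyte markers, by the test of the difference itself, which equals C59A against C59S. These are 2 of 38, while 5.91% of all genes tested were called in that comparison. For S100a9 the effect of C59A exceeded that of C59S by 1.98 ± 0.45 on the log2 scale (SE; edgeR adjusted p = 0.0266), with all 3 C59A libraries above all 3 C59S libraries. For Csf3r it exceeded that of C59S by 1.02 ± 0.25 (edgeR adjusted p = 0.0375), again with all 3 above all 3. Over 23 alternative settings the call was lost in 5 for S100a9 and in 13 for Csf3r. The C59A libraries also differ from C59S in Y-linked reads, so allele and sex cannot be told apart in these differences.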

How the results depend on the processing

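Genes called in C59A against WT numbered 975, and were 1622 by DESeq2, 434 with the mitochondrial share and 247 with the adipocyte sum as covariate, 600 on log2(FPKM + 1), 637 on log2(FPKM + 0.1) and 390 in the 2 groups with the replicate block. In C59S against WT they numbered 0, and were 20 with library totals, 308 with no filter, 670 by DESeq2 and 638 in the 2 groups with the block. In C59A against C59S they numbered 1012, and were 670 with library totals, 1765 by DESeq2, 1768 by voom, 517 and 286 with the mitochondrial and adipocyte covariates, 532 on log2(FPKM + 1), 583 on log2(FPKM + 0.1) and 334 in the 2 groups with the block. Leaving out 1 library gave 502 to 934, 0 to 737 (737 without WT library 3, 33 without C59S library 1) and 318 to 1307 genes. With library totals the median of all genes was -0.26 in C59A and -0.19 in C59S against WT, and 216 of 1079 calls in C59A against WT were higher.

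Markers called in C59A against WT numbered 4, and were 7 by DESeq2 (adding Lyz2, Fcgr3 and Mertk), 0 with the adipocyte covariate and 2 to 5 with 1 library left out (2 without WT library 1). In C59S against WT they numbered 0, and were 1 by DESeq2 and 0 without any 1 library. In C59A against C59S they numbered 2, and were 4 by voom, 1 with the replicate block in all 9 libraries, 1 on each FPKM scale, 0 in the 2 groups with the block, 1 with the adipocyte covariate and 0 to 2 with 1 library left out. The cause of these shifts was not tested. WT had little adipocyte RNA in every library, so that covariate overlaps with genotype.

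In C59S against WT, S100a8 turned to -0.100 with the mitochondrial and -0.0534 with the adipocyte covariate, and Mrc1 to -0.0857 with the adipocyte covariate. No other printed fold change of a marker turned its sign in the alternatives that could be fitted. In C59A against WT, S100a9 kept its call in 22 of 23 alternatives, Csf3r and S100a8 in 21 each and Itgam in 12. The S100a9 value ranged from 2.09 to 3.29. Correlations of same-numbered deviations had mixed signs for C59A with WT (0.0149, -0.0944 and 0.0491) and with C59S (-0.0853, -0.288 and 0.0499). In C59A against WT the block in all 9 libraries lost Itgam (edgeR adjusted p = 0.0737) and in the 2 groups Csf3r too (edgeR adjusted p = 0.0567). Markers under about 0.2 CPM in a library rest on 3 reads or fewer there.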
